A study of Rattus norvegicus with 2 samples.

Results

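Growth arrest and DNA damage genes of the Gadd45 family, together with p53 target genes of the cell cycle and apoptosis, were examined in rat muscle 24 hours after fine needle stimulation. The set named 9 genes, and each was looked up by its symbol among the probe sets annotated with a single gene. This matched 7 genes, Gadd45a, Gadd45b, Gadd45g, Cdkn1a, Mdm2, Ccng1 and Phlda3, with 10 probe sets, out of 9956 genes measured in all. The only probe set that lists Bax also lists LOC681314, so Bax is set apart below. For Btg2 the annotation used here listed 0 probe sets, so it was not analysed here.

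The stimulated sample was adductor muscle, from the inner thigh, of the left hindlimb, labelled as male, of the inbred Lewis strain and of 275 g body weight. That limb had received 100 pricks with a stainless steel needle of 0.14 mm diameter within a square with sides of 10 mm, and it was sampled 24 hours later. The control sample was the same muscle from the right, untreated limb, with the same sex, strain and body weight in its label. Neither age nor the number of animals is given in the labels, and it is not said whether both limbs belonged to the same rat. Each group held 1 array, so no difference has a replicate check, no p-value is given, and "higher" and "lower" describe these 2 samples.

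Gadd45 genes encode small acidic nuclear proteins that bind the replication clamp PCNA, the kinase CDK1 with cyclin B1, and MTK1 (Map3k4), the kinase upstream of p38 and JNK. Gadd45a is a classical p53 target, while Gadd45b is known as a target of NF-kB and TGF-beta and Gadd45g as a cytokine-induced gene. In skeletal muscle, Gadd45a is known as a gene induced by denervation, fasting and disuse. For fasting and disuse, the transcription factor ATF4 is known to act upstream of it. The other members are mostly p53 targets. Cdkn1a (p21) inhibits cyclin-dependent kinases and accompanies the cell cycle exit of differentiating myoblasts. Mdm2 is the ubiquitin ligase that degrades p53. Cyclin G1 (Ccng1) recruits the phosphatase PP2A to Mdm2, and Phlda3 is a PH-domain protein that restrains Akt. Bax permeabilises the outer mitochondrial membrane in apoptosis, and Btg2 is an antiproliferative partner of the CCR4-NOT deadenylase.

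The upstream sequences of the 3 Gadd45 genes and of Cdkn1a are shown first, because the results below turn on how differently these paralogs and Cdkn1a read. Each is the stretch of 250 bases before the start that RefSeq gives for the gene in the rat build GRCr8, 5′ to 3′ on the gene's strand. The stretches are chr4:97486800-97487049 (minus strand) for Gadd45a, chr17:13530352-13530601 (minus strand) for Gadd45g, chr7:9430719-9430968 (minus strand) for Gadd45b and chr20:7150682-7150931 (plus strand) for Cdkn1a. Capitals mark every match, on either strand, to the octamer ATTTGCAT, to the CCAAT box (CCAAT) and to the p53 half-site consensus. No match overlaps another.
Gadd45a: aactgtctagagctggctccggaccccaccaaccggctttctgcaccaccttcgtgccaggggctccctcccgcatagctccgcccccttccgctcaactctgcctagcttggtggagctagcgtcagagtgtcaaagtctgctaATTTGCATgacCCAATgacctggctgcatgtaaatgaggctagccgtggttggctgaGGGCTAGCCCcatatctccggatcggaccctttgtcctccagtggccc
Gadd45g: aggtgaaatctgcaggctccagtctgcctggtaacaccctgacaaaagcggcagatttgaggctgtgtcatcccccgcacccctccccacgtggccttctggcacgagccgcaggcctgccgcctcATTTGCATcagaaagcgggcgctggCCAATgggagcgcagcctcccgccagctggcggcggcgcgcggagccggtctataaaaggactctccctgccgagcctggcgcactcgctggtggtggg
Gadd45b: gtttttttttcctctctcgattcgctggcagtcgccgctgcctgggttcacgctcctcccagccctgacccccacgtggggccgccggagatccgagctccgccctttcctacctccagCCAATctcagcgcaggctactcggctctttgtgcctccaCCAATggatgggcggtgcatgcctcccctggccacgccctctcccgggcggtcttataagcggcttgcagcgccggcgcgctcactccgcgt
Cdkn1a: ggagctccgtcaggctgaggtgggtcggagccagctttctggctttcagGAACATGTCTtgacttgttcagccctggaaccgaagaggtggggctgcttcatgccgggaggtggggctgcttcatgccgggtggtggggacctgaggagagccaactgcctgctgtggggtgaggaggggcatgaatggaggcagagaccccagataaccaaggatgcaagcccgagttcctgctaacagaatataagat

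Of the 9 genes, 8 had an upstream stretch in the RefSeq table. The octamer, the letters bound by POU factors such as Oct-1, occurred in 2 of these 8, Gadd45a (105 bases before the start) and Gadd45g (124 bases before it), and in 1.56% of 33469 rat upstream stretches of the same length. Gadd45b had no octamer in this window and 2 CCAAT boxes. A CCAAT box lay upstream of 6 of the 8 genes and in 34.0% of all stretches. The p53 half-site was found upstream of 3 members, Gadd45a, Cdkn1a and Ccng1, and in 6.64% of all stretches. The motifs were set by hand, and the members were picked as Gadd45 and p53 target genes. The shares over all stretches are thus given for scale and are no test of enrichment. The matches describe letters in a window and say nothing of a factor's binding, which was not measured.

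Gadd45a (Entrez gene 25112) was the member with the largest difference. Its signal was 705 in the pricked limb and 249 in the untouched limb, 2.83-fold higher with needle stimulation (log2 ratio 1.502). Signals here are MAS5 intensities, a linear brightness of the manufacturer's probe set summary in which arrays were scaled to a common mean. A single probe set's log2 ratio had an SD of 0.31 over 2174 genes, judged from the disagreement between the 2 brightest probe sets of the same gene, and the Gadd45a ratio was 4.82 times that SD. Over the brightest 725 of those genes, among whose signals Gadd45a falls, it was 0.25. This SD covers probe-level error and transcript forms, but no difference between limbs or between animals. Among 9956 measured genes the Gadd45a ratio ranked 50 from the top. Both signals were well above the floor of 19.8, the median signal of all probe sets, the lower of them 12.6 times that floor. Gadd45a had 1 probe set, so no other probe set of the gene repeats this reading.

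The other Gadd45 genes differed little between the limbs. Gadd45b (Entrez gene 299626) had a signal of 82.7 with stimulation and 76.0 without, a log2 ratio of 0.12. Gadd45g (Entrez gene 291005) had 157 and 164, a log2 ratio of -0.06, which turned to 0.32 when arrays were scaled to spike-in controls instead. Both ratios were smaller than the probe set SD of 0.31 with the deposited scaling. With spike-in scaling, which lifted the median gene to 0.39, that of Gadd45b was 0.51. The Gadd45a ratio exceeded that of Gadd45b by 1.38 and that of Gadd45g by 1.56 on the log2 scale, against an SD of 0.44 for the difference between probe sets of the same gene.

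**Figure D1:**
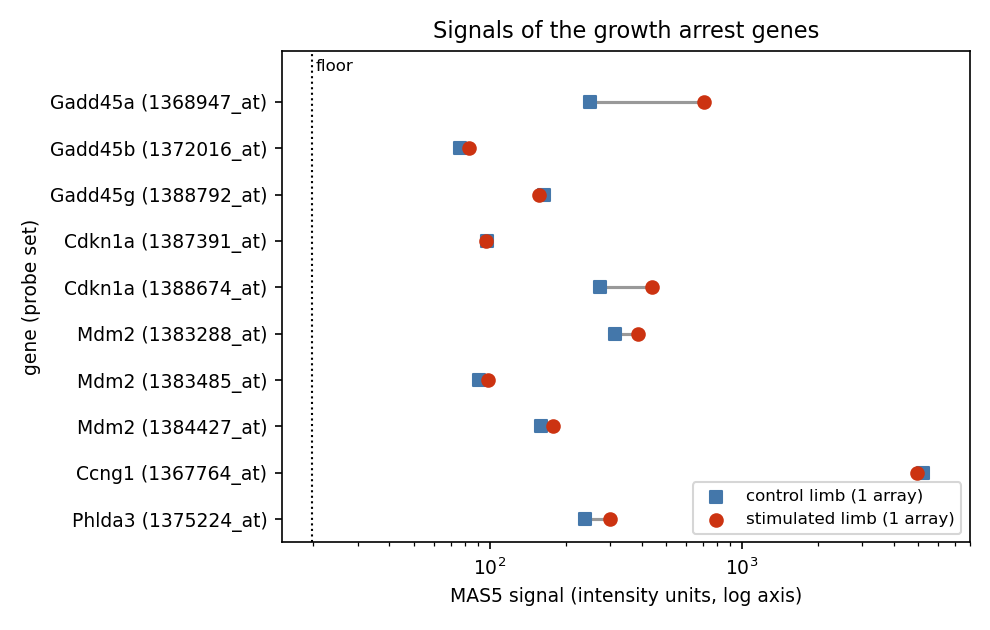
MAS5 signal (log axis) of each of the 10 probe sets of the 7 matched genes, with a square for the control limb, a circle for the stimulated limb and a line joining them (1 array each); the dotted line is the signal floor of 19.8. Gadd45a has the longest line (249 to 705), the brighter Cdkn1a probe set the next, and Ccng1 and Gadd45g lie slightly lower with stimulation, which turns to slightly higher with spike-in scaling; signals of different probe sets are not comparable with each other.

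Cdkn1a (Entrez gene 114851), the CDK inhibitor p21, was read by 2 probe sets that disagreed. The brighter one had a signal of 439 with stimulation and 273 without, 1.61-fold higher (log2 ratio 0.69, or 2.21 times the probe set SD). The dimmer one had 96.4 and 97.2, a log2 ratio of -0.01. The 2 ratios differed by 0.70, and 12.0% of the 2174 genes with several probe sets showed a larger disagreement between their brightest pair. Averaged over both probe sets, Cdkn1a had a log2 ratio of 0.34, a 1.26-fold difference. The higher reading for Cdkn1a thus rests on 1 of its probe sets.

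Mdm2 (Entrez gene 314856), the p53 ligase, was read by 3 probe sets that were all slightly higher with stimulation. The brightest had signals of 386 and 314 (log2 ratio 0.30), and the others had 178 and 160 (0.16) and 98.9 and 90.4 (0.13). Each of these ratios was below the pooled probe set SD of 0.31, and the 3 spanned 0.17. The ratio of the brightest was above the SD of 0.25 found over the brightest 725 genes with several probe sets. Their mean was 0.19, a repeated direction of small size.

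Phlda3 (Entrez gene 363989), the Akt repressor, had a signal of 300 with stimulation and 239 without, a log2 ratio of 0.33. That ratio was close to the pooled probe set SD of 0.31 and above the 0.25 of the brightest 725 genes. Ccng1 (Entrez gene 25405), cyclin G1, had 4960 and 5210, a log2 ratio of -0.07, which became 0.31 with spike-in scaling. Its signal was far above the floor in both samples, and the difference between them was small. The probe set shared by Bax and LOC681314 had 60.2 and 59.3, a log2 ratio of 0.02, and transcripts of either gene could have given it.

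Set against all measured genes, 2 of the 7 members (Gadd45a and the brighter Cdkn1a probe set) were at least 1.5-fold higher, where 6.59% of 9956 genes were. At that share, 0.461 of 7 genes would be. The members were chosen with earlier results of these data known, so the comparison is a description and no test. No member was at least 1.5-fold lower, where 6.94% of all genes were. At 2-fold, 1 of 7 members (Gadd45a) was higher and 0 were lower, where 1.43% of all genes were higher and 1.43% lower. In all, 5 of 7 members lay above 0, as did 52.3% of all genes. The median log2 ratio of the members was 0.30 and that of all genes 0.019, and without Gadd45a the median of the other 6 was 0.21. Of the 7 ratios, 4 lay within 1 pooled probe set SD (0.31) of 0, as did 62.4% of all genes. Mdm2, at 0.30, was among these 4 but lay outside the SD of 0.25 of the brightest genes. The ranks from the top were 50 for Gadd45a, 424 for Cdkn1a, 1820 for Phlda3, 2064 for Mdm2, 3791 for Gadd45b, 5911 for Gadd45g and 6019 for Ccng1, so the members spread from the top of the distribution to its middle. Taking the median over a gene's probe sets left 1 member, Gadd45a, at least 1.5-fold higher.

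**Figure D2:**
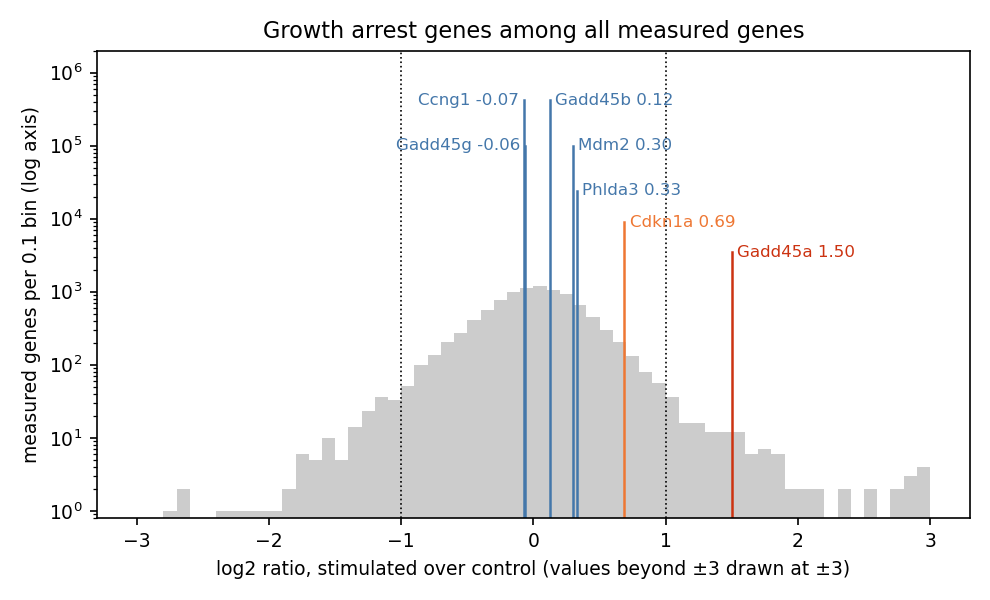
Histogram of the log2 ratio, stimulated over control, of 9956 measured genes (grey, gene number on a log axis) with a vertical line for each of the 7 members; dotted lines mark a 2-fold difference. Gadd45a at 1.502 lies beyond the 2-fold line, Cdkn1a (brighter probe set) at 0.69 lies on the upper slope, and the other 5 lie between -0.07 and 0.33; with spike-in scaling the 2 values below 0 also come to lie above it.

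The wider p53 pathway differed less than Gadd45a. From a list of 37 other p53 pathway genes, 20 were measured, with 9 above and 11 below 0 and a median log2 ratio of -0.01. At 1.5-fold, 0 of the 20 differed in either direction, where 6.59% of all genes were higher and 6.94% lower. Among the best known p53 targets, the apoptosis gene Bbc3 (PUMA) had signals of 57.8 and 55.2 (log2 ratio 0.07), and the death receptor Fas 31.1 and 31.3 (-0.01). The DNA repair gene Ddb2 had 26.5 and 23.4 (0.18), with a second probe set at -0.57. The signals of Fas, Ddb2, Zmat3, Pidd1, Plk2, Mdm4 and Gtse1 were under 2 times the floor in both samples, where differences are hard to see. Those of Sesn2, Ppm1d and Ercc5 were that low in 1 sample. The near absence of differences in this list is limited by these dim genes. The largest ratio in the list was that of Sesn2, a stress-induced regulator of mTORC1, at 27.0 against 40.1 (-0.57). Its relative Sesn1 had 0.32 with a second probe set at -0.56. Cyclin G2 (Ccng2), the relative of Ccng1, had 255 and 203 (0.33). Mdm4, the partner of Mdm2, had a log2 ratio of -0.07. Gdf15, Perp and Plk3 were below the floor in both samples.

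Among other cell cycle inhibitors, 8 of 11 measured genes lay within 1 probe set SD of 0, as did 62.4% of all genes. These 11 were CDK inhibitors, BTG/TOB antiproliferative genes and retinoblastoma family genes, with a median of -0.05. At 1.5-fold, 1 was higher and 0 were lower, where 6.59% of all genes were higher and 6.94% lower. The higher one was Rbl1 (p107), at 40.6 against 25.1 (log2 ratio 0.70), with a control signal under 2 times the floor. Cdkn1c (p57), a paralog of Cdkn1a, had 168 and 114 (0.56), while Cdkn1b (p27) had 564 and 492 (0.20). Of the relatives of Btg2, Btg1 had a ratio of 0.20 and Btg3 of -0.09.

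Of 13 measured partners of the GADD45 proteins and stress kinases, 10 lay within 1 probe set SD of 0, as did 62.4% of all genes. At 1.5-fold, 0 were higher and 1 lower, where 6.59% of all genes were higher and 6.94% lower. The median of the 13 was 0.03. Map3k4, the kinase that GADD45 proteins activate, had 76.7 and 98.7 (log2 ratio -0.36), and Map2k3, a kinase that activates p38, had 1174 and 896 (0.39). Mapk14 (p38 alpha) had a log2 ratio of -0.16. The lower one was Mapk9 (JNK2), at 67.7 against 130 (-0.94), with a second probe set at -0.56. Pcna had 553 and 486 (0.19), and Cdk1 and Ccnb1 had ratios of -0.13 and 0.13. ATF4, a factor upstream of Gadd45a in muscle disuse, had nearly equal transcript signals, 2079 and 2065 (Atf4, 0.01). Of 12 measured genes around ATF4 and stress signalling, 1 was at least 1.5-fold higher, Atf3 at 116 against 71.4 (0.70), 0 were lower and the median was 0.05. Ddit3 (CHOP) had a ratio of 0.22 and the ATF4 target Asns of -0.29, with both Asns signals under 2 times the floor. ATF4 is controlled largely at translation, which these arrays do not read.

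The BCL2 family list, to which Bax belongs, had 11 of 14 measured genes, caspases and Diablo included, above 0, as were 52.3% of all genes. Of the 14, 4 were at least 1.5-fold higher, where 6.59% of all genes were, and 1 was lower, where 6.94% were. At 2-fold, 2 were higher, where 1.43% of all genes were, and the median was 0.24. With the median over a gene's probe sets, 3 were at least 1.5-fold higher, 1 of them 2-fold, and 0 were lower. Bcl2a1, an antiapoptotic gene of leukocytes, had 101 and 38.9 (2.59-fold higher). Bok had 106 and 51.9 (2.04-fold higher), but a dimmer Bok probe set read -0.37 on the log2 scale. The proapoptotic BH3-only genes Bid (116 against 62.0) and Bcl2l11 (BIM, 52.2 against 31.0) were 1.88-fold and 1.68-fold higher. The control signals of Bcl2a1 and Bcl2l11 were under 2 times the floor. The other Bid probe set had a log2 ratio of at least 0.54 (28.8 against 13.7, below the floor). Casp8 was 1.52-fold lower at 26.2 against 39.8, both low signals. A second Casp8 probe set went the other way, with a log2 ratio of at least 0.03 (20.3 against 16.8, below the floor). Bak1, which acts beside Bax, had a ratio of 0.26. The antiapoptotic Bcl2l1 (BCL-XL) and Mcl1 had ratios of -0.48 and -0.16.

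Most genes of a list named for denervation and disuse were higher in the same sample, which does not tell what raised them. The list was drawn up with several of these values already known. Of 11 measured, 7 were at least 1.5-fold higher and 0 lower, 3 of them at least 2-fold higher, with a median log2 ratio of 0.71 against 0.019 for all genes. The shares of all genes were 6.59% at least 1.5-fold higher, 6.94% lower and 1.43% at least 2-fold higher. Chrnd, a subunit of the acetylcholine receptor, had 160 and 22.3 (7.18-fold higher, with a control signal near the floor). Sln, the calcium pump regulator sarcolipin, had 191 and 37.0 (5.17-fold), and the ankyrin repeat gene Ankrd1 had 1208 and 297 (4.07-fold). Myog (myogenin), a transcription factor induced by denervation, had 332 and 167 (1.99-fold). The ubiquitin ligase Trim63 had 1584 and 874 (1.81-fold), whereas the ligase Fbxo32 had 30.9 and 41.3 (log2 ratio -0.42). The adhesion molecule Ncam1 was 1.64-fold and the receptor subunit Chrna1 1.57-fold higher, both, like Sln, from control signals under 2 times the floor. Chrnb1, another subunit, had a ratio of -0.13. Chrng, Chrne and Musk were below the floor in both samples. Innervation was not recorded, and the part of any of these genes in the Gadd45a reading was not tested.

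**Figure D3:**
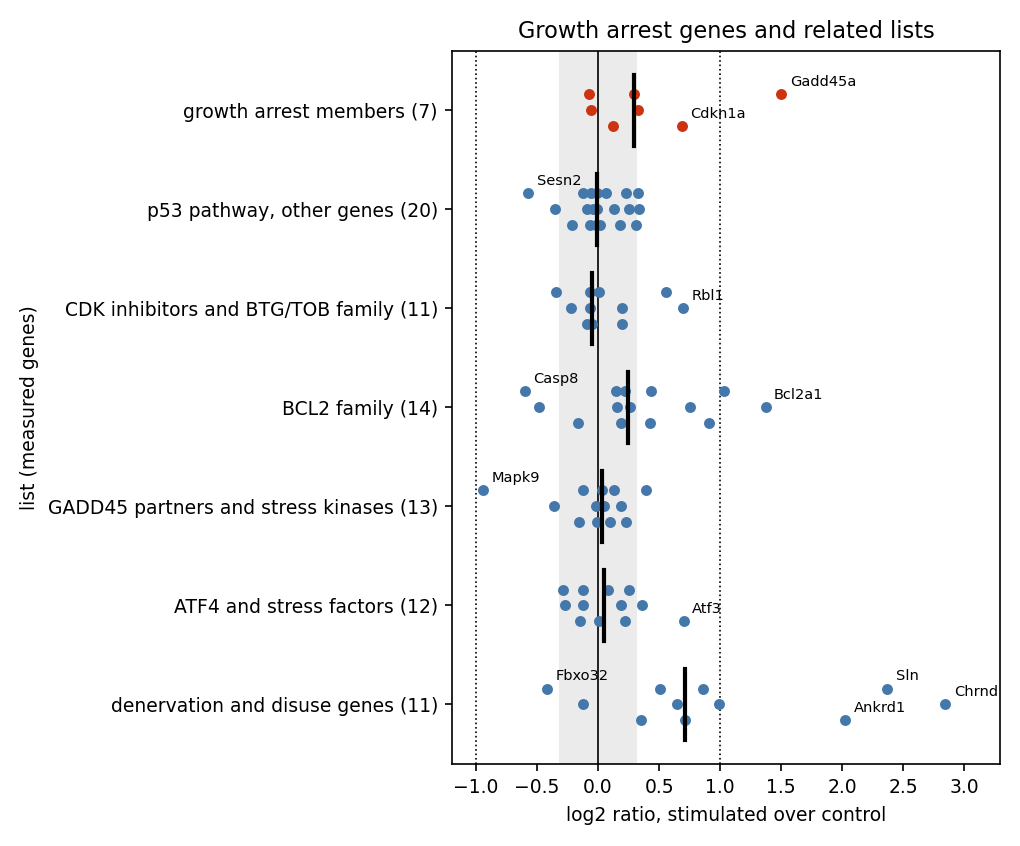
Log2 ratio, stimulated over control, of each measured gene (points) in the 7 matched members (red) and 6 related lists (blue), with the list median as a black bar; the grey band is 1 SD of a single probe set (0.31) and dotted lines mark a 2-fold difference. The other p53 genes lie between -0.57 and 0.33 and the denervation genes between -0.42 and 2.84, a list drawn up with several values known; directions are relative to the median gene.

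Markers of several cell types also differed between the samples. As the adductor label requires, fibre genes were bright in both, for example skeletal actin Acta1 (12095 with and 16712 without stimulation). Of 17 macrophage markers, 17 lay above 0 and 11 were at least 1.5-fold higher, where 6.59% of all genes were. Their summed signal was 17274 with and 6650 without stimulation. Much of that difference lay in Spp1, Gpnmb (3165 against 188), Lyz2 (5096 against 3449) and Lgals3 (2027 against 599). Spp1 was at least 144-fold higher, at 2847 from a control signal of 12.7, below the floor. Itgam, Cd14 and Cd163 differed little, with log2 ratios of 0.15, 0.08 and 0.09. Of 9 markers of slow and oxidative fibres, 7 were at least 1.5-fold higher, with a median of 1.60. That median was 0.997 when the median over a gene's probe sets was taken. Of 13 endothelial markers, 9 were at least 1.5-fold lower (summed signal 1027 against 1766), where 6.94% of all genes were. With spike-in scaling, and without reference to the median gene, 4 of the 13 were that much lower, with a median of -0.27. Adipocyte markers numbered 4 of 7 at least 1.5-fold lower (1442 against 3173). Of 12 fast-fibre markers 0 were 1.5-fold different, with a median of -0.42, which shrank to -0.008 with quantile normalization. Fibroblast markers had 0 of 10 that far apart. Neutrophil and lymphocyte markers had 5 of 14 measured, with 1 at least 1.5-fold higher (Cd8a, at least 3.76-fold) and 1 lower (Cd4). In a tissue sample, more cells of a type and more RNA per cell cannot be told apart. Gadd45a and Cdkn1a are expressed by several of these cell types, and the part of tissue makeup in their readings was not tested.

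**Figure D4:**
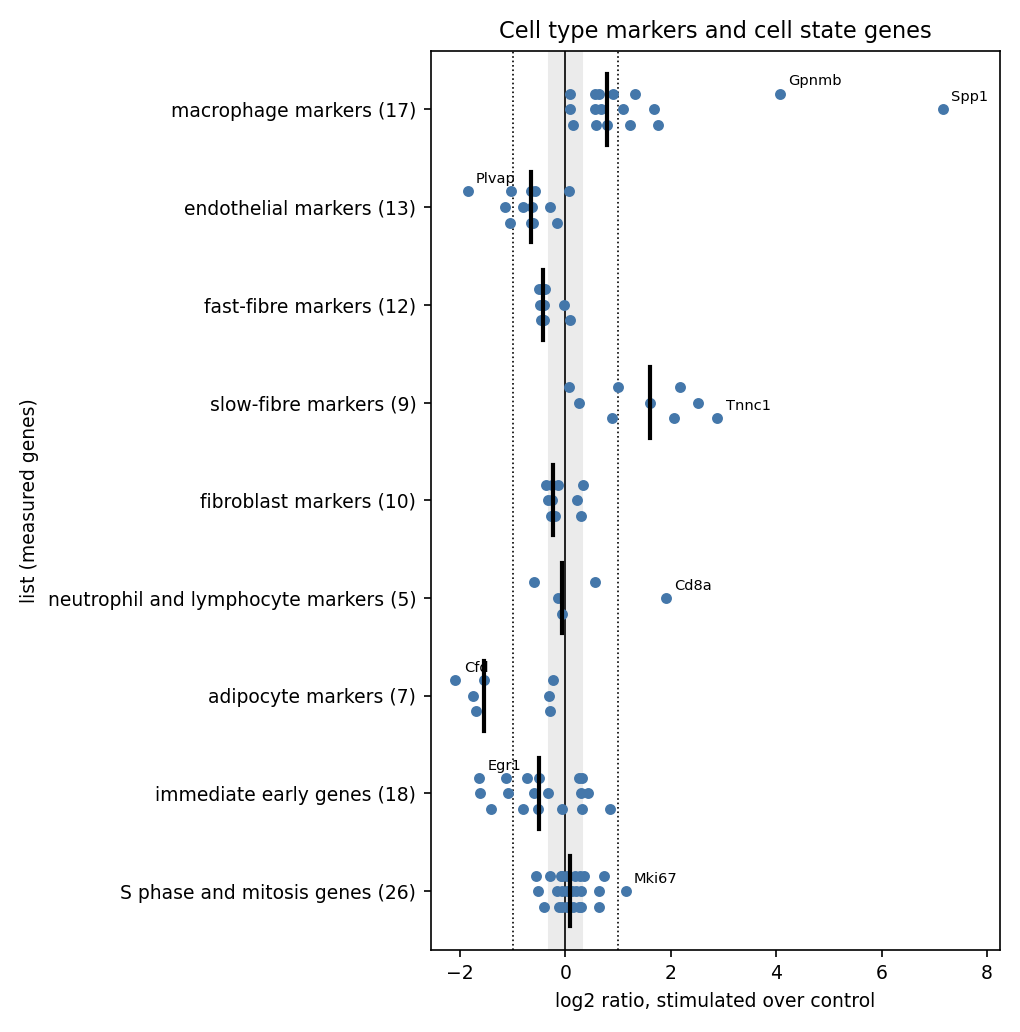
Log2 ratio, stimulated over control, of each measured marker gene (points) for 7 cell type lists and for immediate early and cell cycle genes, with medians as black bars, the grey band at 1 probe set SD (0.31) and dotted lines at 2-fold; genes with 1 sample below the floor are drawn at their lower bound. Macrophage (median 0.78) and slow-fibre markers lie to the right and endothelial (-0.65) and adipocyte markers (-1.54) to the left, relative to the median gene.

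The ratio of signal at the 3' end to that at the 5' end was 2.43 with and 2.26 without stimulation for beta-actin, and 1.12 and 1.08 for Gapdh. All 18 bacterial and phage spike-in probe sets were lower in the stimulated sample, with a median log2 ratio of -0.38. Scaling to them moved the median of all genes from 0.019 to 0.39, and every member upward by a like amount, to 1.89 for Gadd45a. Every direction above is therefore relative to the median gene.

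**Figure D5:**
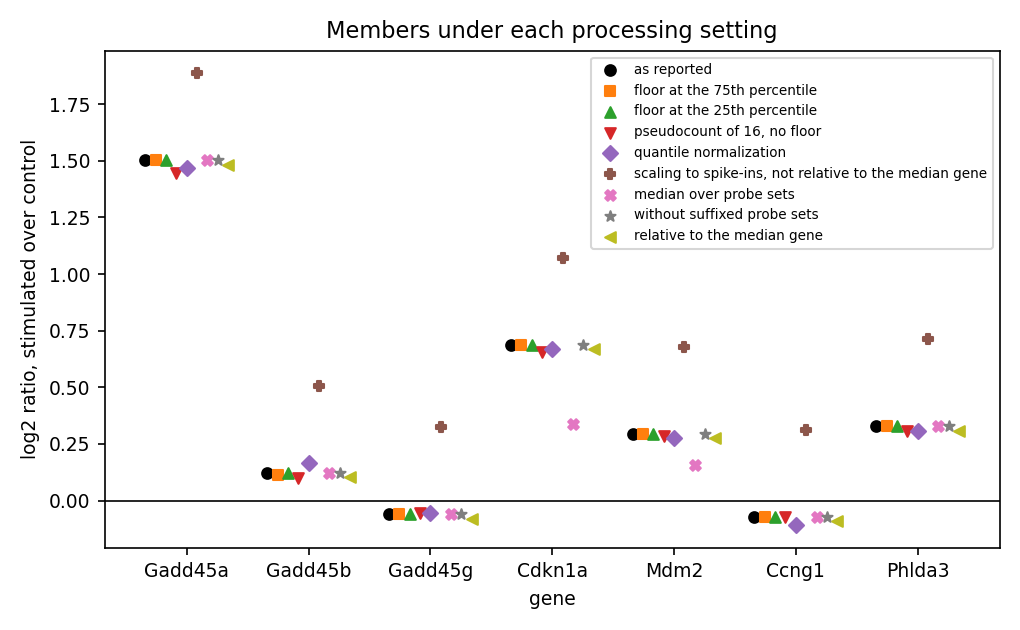
Log2 ratio, stimulated over control, of the 7 members (x axis) under 9 ways of processing the same 2 arrays, one symbol for each. Gadd45a stays between 1.44 and 1.89, Cdkn1a drops to 0.34 with the median over its probe sets, and spike-in scaling lifts all members, taking Gadd45g and Ccng1 above 0.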

How the data were processed

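Samples of rat muscle were each hybridised to 1 Affymetrix expression array, after RNA purification on silica columns and biotin labelling in a single amplification cycle, per the labels' protocols. The deposited table holds a linear signal intensity for each probe set, which the authors obtained from MAS5 according to the submitters' processing notes (the manufacturer's summary of each probe set). For its version and its scaling target, the sources used here give nothing. The mean after trimming 2% at each end was 76.5 on both arrays. The arrays' number, 1 per group, limits the precision.

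Of 31042 probe sets that are not manufacturer's controls, 20826 have 1 gene in the platform annotation, 436 have several and 9780 have none listed. Gene identifiers of 20758 matched RefSeq (assembly GRCr8), which changed 0 symbols. Signals under the median of both arrays (19.8) were raised to it, log2 ratios of stimulated over control were taken, and a gene was measured where 1 array reached that floor. The probe set of highest mean log2 signal stands for its gene; where 1 array was below the floor, a fold is "at least". Genes of 15 other lists were described by counts and medians, and the naming rule covered every member, up to 5 per list with the largest absolute ratio above the floor on both arrays and any at least 2-fold different. The text gives all members and part of the other genes so chosen, since marker lists appear mainly as counts; further genes were named for their roles, with values known. Members and lists were chosen with earlier results of these data known. With 2 arrays, any pair of genes has the same pattern or the opposite one, so no gene of like pattern is named. The counting was tested on simulated data. Python 3.11.15, numpy 2.4.6 and pandas 2.3.3 were used.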

Additional observations from a re-analysis of the deposited data

How the results depend on the processing

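Alternatives were a floor at the 75th or 25th percentile of signals, a pseudocount of 16 in place of the floor, quantile normalization, scaling to the spike-ins, the median over a gene's probe sets, leaving out probe sets with a suffix, centring on the median gene and, chosen after seeing the data, counting Bax through its shared probe set. Scaling to the spike-ins without reference to the median gene put 4 members at least 1.5-fold and 2 at least 2-fold higher, with a median log2 ratio of 0.68; the same scaling put 28.3% of all genes at least 1.5-fold higher. With the median over probe sets, 1 member was at least 1.5-fold higher and the members' median was 0.16, because the dimmer Cdkn1a and Mdm2 probe sets had smaller ratios. Under the other alternatives those counts stayed within 1.5 times, and the median moved by less than the probe set error. Over 9 alternatives the log2 ratio ranged from 1.44 to 1.89 for Gadd45a, from 0.34 to 1.07 for Cdkn1a, from 0.16 to 0.68 for Mdm2 and from 0.31 to 0.71 for Phlda3. It ranged from 0.10 to 0.51 for Gadd45b, from -0.08 to 0.32 for Gadd45g and from -0.11 to 0.31 for Ccng1. No paired analysis was possible because each group has 1 array. No replicate could be left out for the same reason. Signals near the floor limit what can be seen for several genes, among them Ddb2, Fas, Sesn2, Zmat3, Pidd1, Asns, Casp8, Rbl1, Bcl2a1, Bcl2l11 and Mki67.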

Other observations

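Immediate early genes, a class that includes Btg2 by its rapid induction, had 12 of 18 measured genes below 0 in the stimulated sample. Of the 18, 8 were at least 1.5-fold lower and 1 higher, with a median log2 ratio of -0.51. Over all genes, 6.94% were lower and 6.59% higher by that measure. With spike-in scaling, and without reference to the median gene, 5 were lower and 5 higher, with a median of -0.13. That scaling put 1.81% of all genes lower and 28.3% higher. Egr1 had signals of 67.9 and 211 (3.10-fold lower), Zfp36, which destabilises cytokine transcripts, 69.4 and 212 (3.06-fold lower) and Fos 41.8 and 112 (2.67-fold lower). Jun had 277 and 225 (log2 ratio 0.30), and Fosl1 was at least 1.80-fold higher at 35.5 against 12.2, below the floor.

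Genes of S phase and mitosis did not go one way. Of 26 measured, 4 were at least 1.5-fold higher and 0 lower, with a median of 0.08. By that measure 6.59% of all genes were higher and 6.94% lower. Mki67, a marker of proliferating cells, had 82.1 and 37.2 (2.21-fold higher), with a control signal under 2 times the floor. The replication helicase genes Mcm3 and Mcm4 were 1.65-fold and 1.55-fold higher, also from low signals, while Bub1b was at least 1.56-fold higher. Top2a (77.4 against 82.6) and Cdk1 (103 against 112) were close to their control signals. The D-type cyclin genes, which Cdkn1a protein binds with their kinases, were lower, with log2 ratios of -0.53 for Ccnd1, -0.57 for Ccnd2 and -0.42 for Ccnd3. Other Ccnd1 probe sets had -0.58 and -0.58. With spike-in scaling and without reference to the median gene, these 3 genes lay between -0.18 and -0.03.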
